A study of Glycine max with 2 samples.

Results

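The transcripts described here encode RNA splicing and RNA-binding proteins in leaves of soybean (Glycine max). They were chosen by words in the deposited description, namely splicing, serine/arginine, arginine/serine, pre-mRNA, RNA-binding, RNA helicase, polyadenyl, glycine-rich RNA and ribonucleoprotein. At 95 days after sowing 34 of 2471 listed transcripts matched, from 28 genes, and at 50 days 30 of 2413, from 25 genes. Over both ages these were 51 different transcripts of 43 genes, out of 4096 transcripts of 3358 genes. No description held "glycine-rich RNA" or "arginine/serine".

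The plants were grown in a greenhouse and belonged to an early and a late senescence type, and the study asked which genes differed between the types at each age. Each age is represented by 1 deposited comparison of a library B with a library A, from leaf harvested at 95 or at 50 days. Neither the labels nor the column headers say which letter is the early type, or that a letter stands for the same type at both ages, so the libraries are called type B and type A. The sources used here give neither the cultivars nor the number of plants behind a library. No type was sequenced more than 1 time at an age, so nothing below has a replicate check, and a p-value sets a library against a library.

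Values are normalised reads of a single transcript (isoform), that is, the deposited value minus the 1 that had been added to it. The sources used here do not say how reads were divided among isoforms of 1 gene. No read for an isoform therefore means that none was assigned to it, not that it was absent. Log2 ratios and p-values are those of the authors' deposited tables, with the ratio taken as B over A. A table lists a transcript only where its unadjusted p was under 0.05, so isoforms that differed less are missing and library depth is unknown. A transcript is called where the adjusted p is under 0.05 and the log2 ratio at least 1 in size. A fold is a lower bound computed against 3 reads where 1 library had no read, and otherwise a ratio with a 95% Clopper-Pearson interval. Bounds and intervals cover counting error only. In whole leaf, fewer cells of a type and less RNA per cell cannot be told apart.

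Introns are removed from precursor mRNA by the spliceosome, which assembles on each intron from small nuclear ribonucleoproteins and many further proteins. The U1 particle marks the start of the intron, U2 and its partners mark the branch point and the end, and U4/U6 and U5 join before the RNA is cut. SR proteins, rich in serine and arginine, help to choose the splice sites, RNA helicases unwind RNA at each stage, and other RNA-binding proteins govern polyadenylation, export, translation and decay. In plants, transcripts of splicing proteins are often alternatively spliced themselves, and in Arabidopsis splicing factors are known to shape the transcripts of the circadian clock.

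No splicing or RNA-binding transcript was called at either age, against 1.50% of all listed transcripts at 95 days and 4.64% at 50 days. The differences below are therefore values of single libraries, and none passed the adjusted threshold. The nearest was a PRP40A-like isoform at 95 days, Glyma.20G135800.1, with an adjusted p of 0.0509 in the authors' deposited table. At 50 days the lowest adjusted p in the deposited table was 0.0813, for an isoform of a CWC22 homolog, Glyma.13G178100.3. The adjusted p was 1 for 12 of the 34 transcripts at 95 days and for 8 of the 30 at 50 days.

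By side, 16 transcripts were higher in B and 18 in A at 95 days, and 12 were higher in B and 18 in A at 50 days. The share with more in B was 47.1% at 95 days, where all listed transcripts gave 53.3%, and 40.0% at 50 days, where all gave 39.2%. Both shares lie close to the background, so the set as a whole leaned to neither library beyond what all listed transcripts did. The median log2 ratio was -5.20 at 95 days, against 4.52 over all listed transcripts, and -5.78 at 50 days, against -5.29. Since every ratio was far from 0, between 4.99 and 10.50 in size at 95 days and between 4.23 and 10.16 at 50 days, such a median mainly says which side held the majority. With the words for splicing, SR proteins, pre-mRNA and small nuclear ribonucleoproteins alone, the majority at 95 days turned to B, 11 against 9 in A.

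Most members had reads assigned in 1 library only. At 95 days 30 of 34 had no read in the other library, 16 of them in B and 14 in A, where 75.3% of all listed transcripts had none. At 50 days 24 of 30 had no read in the other library, 13 in B and 11 in A, where the share over all was 70.5%. In the library with more, members ranged between 31.7 and 2983 normalised reads at 95 days with a median of 296, and between 77.1 and 2473 at 50 days with a median of 287. The medians over all listed transcripts were 359.9 and 371. Most members thus had reads assigned in 1 library and none in the other, as did most of all listed transcripts. Their median level lay somewhat below that over all.

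**Figure D1:**
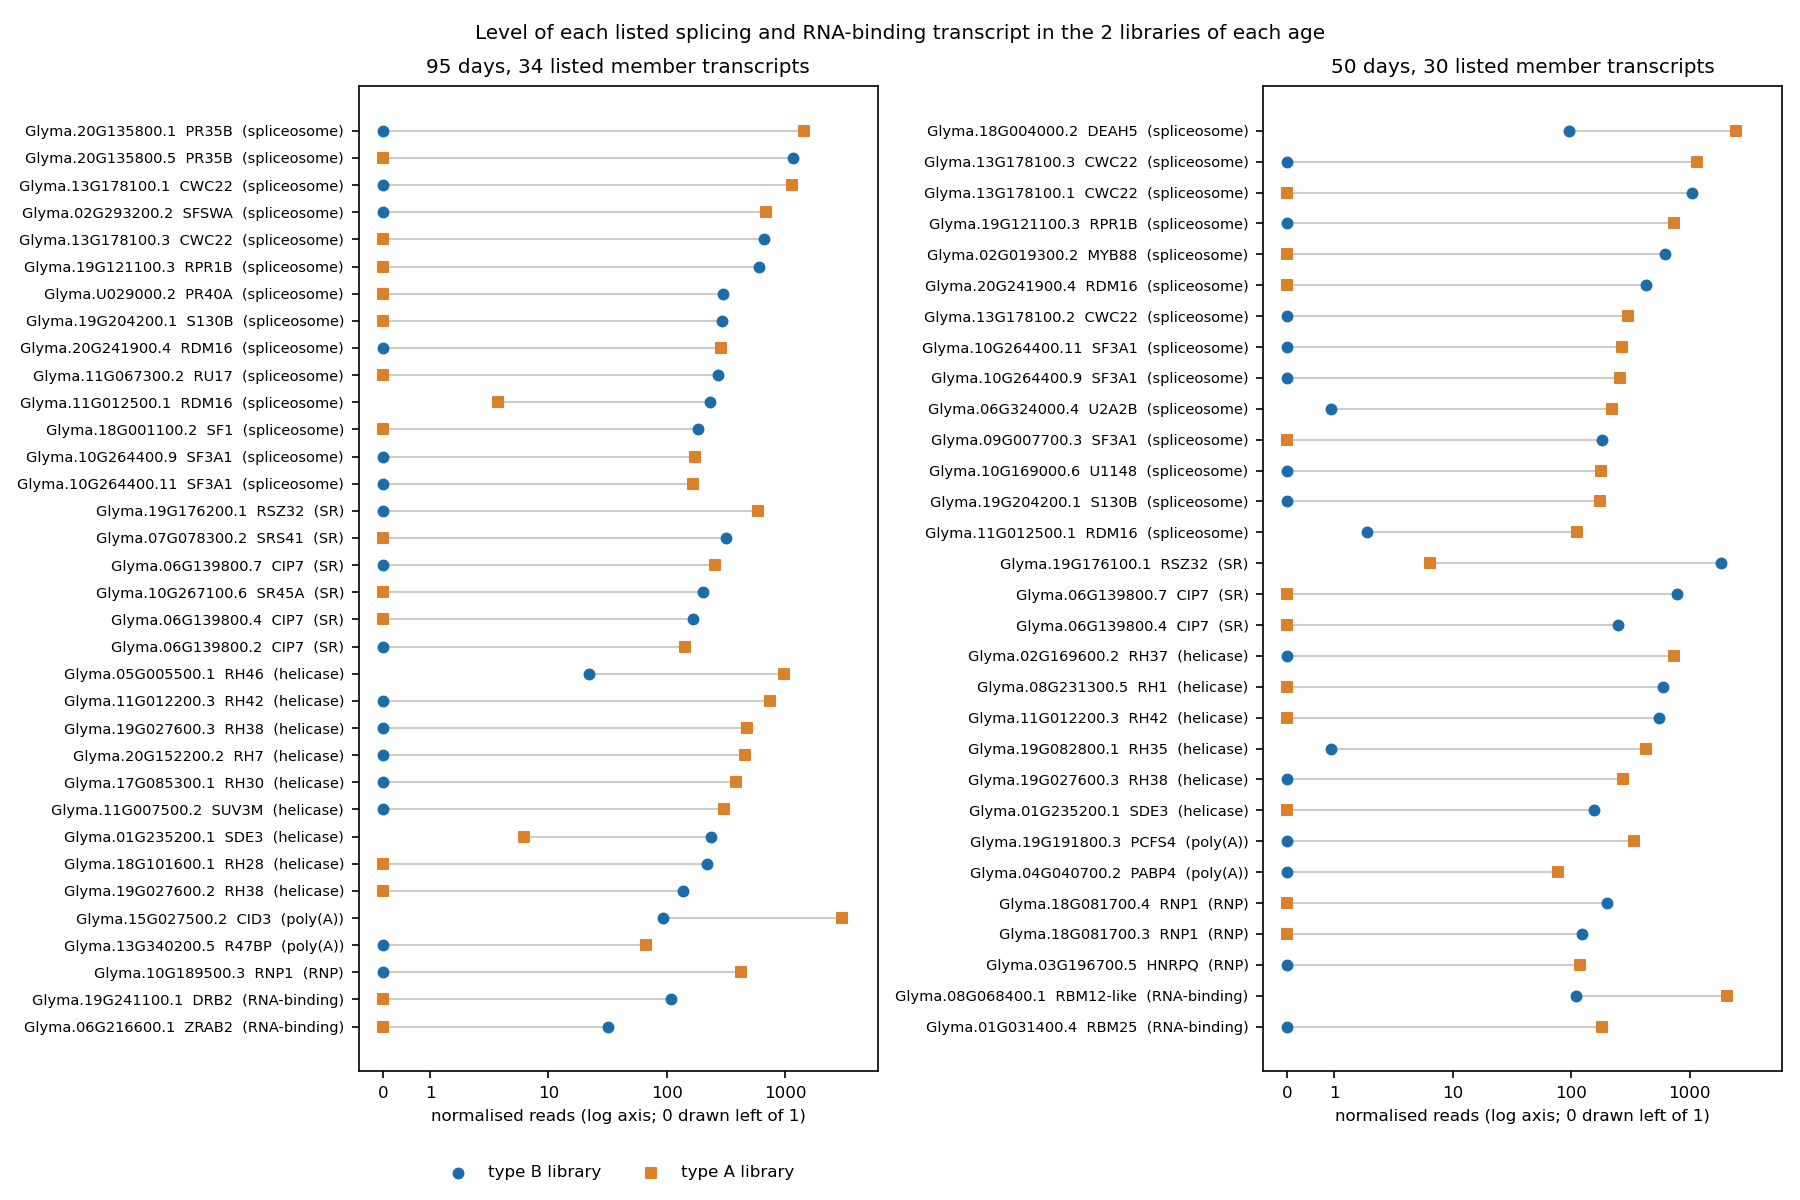
Normalised reads (log axis, 0 drawn left of 1) of every listed splicing and RNA-binding transcript in the type B library (circles) and the type A library (squares) at 95 and 50 days, ordered by role and level. Most pairs run from 0 to above 100; transcripts with reads in both libraries number 4 at 95 days and 6 at 50 days.

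Proteins of early intron recognition lay on both sides. The PRP40A-like gene Glyma.20G135800 encodes a protein of a family that joins the U1 particle to the other end of the intron in yeast. Its isoform Glyma.20G135800.1 had 0 normalised reads in B and 1451 in A at 95 days, at least 442-fold lower in B. Its isoform Glyma.20G135800.5 had 1169 in B and 0 in A, at least 313-fold higher in B. A further PRP40A-like gene, Glyma.U029000.2, had 299.8 in B and 0 in A. The U1 70 kDa protein, a part of the U1 particle, had 271 in B and 0 in A as Glyma.11G067300.2. Splicing factor 1, which binds the branch point, had 183 in B and 0 in A as Glyma.18G001100.2. Of these 5 isoforms at 95 days, the first named was thus alone on the A side. The large U2AF subunit, which reads the pyrimidine-rich end of the intron, was listed at 50 days as Glyma.06G324000.4, with 0.939 in B (1 read) and 222 in A. That is a ratio of 236 (42.0 to 9352), an interval made wide by the single read.

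The U2 particle was represented by SF3A1 transcripts and by a transcript with the symbol of an SF3b subunit. SF3A1, which helps U2 to bind the branch point, was listed from 2 genes. Glyma.10G264400.9 had 0 in B and 174 in A at 95 days, and 0 in B and 256 in A at 50 days. Glyma.10G264400.11 had 0 in B and 167 in A at 95 days, and 0 in B and 267 in A at 50 days. Both isoforms lay on the A side at both ages. The second gene had its listed isoform on the other side, Glyma.09G007700.3 at 50 days, with 182 in B and 0 in A. Both genes share an Arabidopsis match, and how reads were divided between them is not stated in the sources used here. A transcript described as prp12-like, with the symbol S130B of an SF3b subunit, had 293 in B and 0 in A at 95 days as Glyma.19G204200.1. At 50 days it had 0 in B and 174 in A.

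PRP3, a protein of the U4/U6 particle that in Arabidopsis (as RDM16) also acts in RNA-directed DNA methylation, was listed from 2 genes at both ages. Glyma.20G241900.4 had 0 in B and 285 in A at 95 days, and 428 in B and 0 in A at 50 days. Glyma.11G012500.1 had 230 in B and 3.74 in A at 95 days, 61.5-fold higher in B (20.8 to 301). At 50 days it had 1.88 in B and 111 in A, 59.0-fold lower in B (16.0 to 492). The PRP3-like genes thus stood on opposite sides at each age, and each on the other side at the other age. They share an Arabidopsis match, and the sources used here do not say how reads were divided between genes alike in sequence; how alike these are was not tested.

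Among proteins of the catalytic spliceosome, CWC22 had the highest levels apart from PRP22. In human cells CWC22 brings the core of the exon junction complex to the spliced RNA. At 95 days Glyma.13G178100.1 had 0 in B and 1135 in A, at least 346-fold lower in B, and Glyma.13G178100.3 had 664 in B and 0 in A, at least 178-fold higher in B. At 50 days Glyma.13G178100.1 had 1039 in B and 0 in A, at least 432-fold higher in B, and Glyma.13G178100.3 had 0 in B and 1141 in A, at least 405-fold lower in B. Each of these isoforms was at 0 in 1 library of each age. The isoform with reads in B at 95 days was the one with reads in A at 50 days. How reads were divided between these isoforms is not stated in the sources used here. Another isoform, Glyma.13G178100.2, was listed at 50 days, with 0 in B and 302 in A.

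The helicase described as a pre-mRNA-splicing factor with the symbol DEAH5 (PRP22, which releases the finished mRNA from the spliceosome) was listed at 50 days. Glyma.18G004000.2 had 95.8 in B and 2473 in A, 25.8-fold lower in B (21.2 to 31.8), so that unlike most members it was well read in both libraries. A transcript described as CEF1-like, Glyma.02G019300.2, had 621 in B and 0 in A at 50 days, but its deposited symbol is MYB88, in Arabidopsis a transcription factor of stomatal development. The 48 kDa protein of the U11/U12 particle, which serves the rare minor class of introns, had 0 in B and 178 in A at 50 days as Glyma.10G169000.6. A suppressor of white-apricot homolog, a splicing regulator known from Drosophila, had 0 in B and 684 in A at 95 days as Glyma.02G293200.2. A protein of the RPRD1 family, which in human cells binds the tail of RNA polymerase II, was listed at both ages. Glyma.19G121100.3 had 596 in B and 0 in A at 95 days, and 0 in B and 733 in A at 50 days, again on the other side. Together the spliceosome and splicing factors held 8 transcripts with more in B and 6 with more in A at 95 days, and 4 with more in B and 10 with more in A at 50 days.

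Isoforms of 1 gene on opposite sides were found in 4 of the 5 member genes with at least 2 listed isoforms at 95 days, where 51.8% of all such genes had them. At 50 days this was 1 of 4, against 39.5% of all such genes. These counts are too small to set the member genes apart from the rest. Each of these isoforms had no read in 1 library, so sums over isoforms of both sides had to lie closer together than the isoforms did. For Glyma.20G135800 at 95 days the sum was 1169 in B and 1451 in A, 1.24-fold lower in B (1.14 to 1.35). For the CWC22 homolog it was 664 in B and 1135 in A at 95 days, 1.71-fold lower in B (1.54 to 1.90), and 1039 in B and 1443 in A at 50 days, 1.39-fold lower in B (1.29 to 1.50). Isoforms with a larger p are not in these sums, so they are not the genes' totals.

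The other pair of genes with isoforms on opposite sides at 95 days had larger differences in their sums. The helicase RH38-like gene Glyma.19G027600, in Arabidopsis (LOS4) needed for mRNA export, had Glyma.19G027600.2 at 136 in B and 0 in A, and Glyma.19G027600.3 at 0 in B and 478 in A. Its sum was 3.53-fold lower in B (2.87 to 4.35). Glyma.06G139800, described as serine/arginine repetitive matrix protein 2, had 3 isoforms listed, with a sum of 165 in B and 396 in A, 2.40-fold lower in B (1.97 to 2.93). The remaining genes with several listed isoforms, Glyma.10G264400 at both ages and Glyma.06G139800 and Glyma.18G081700 at 50 days, had them all on 1 side.

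**Figure D2:**
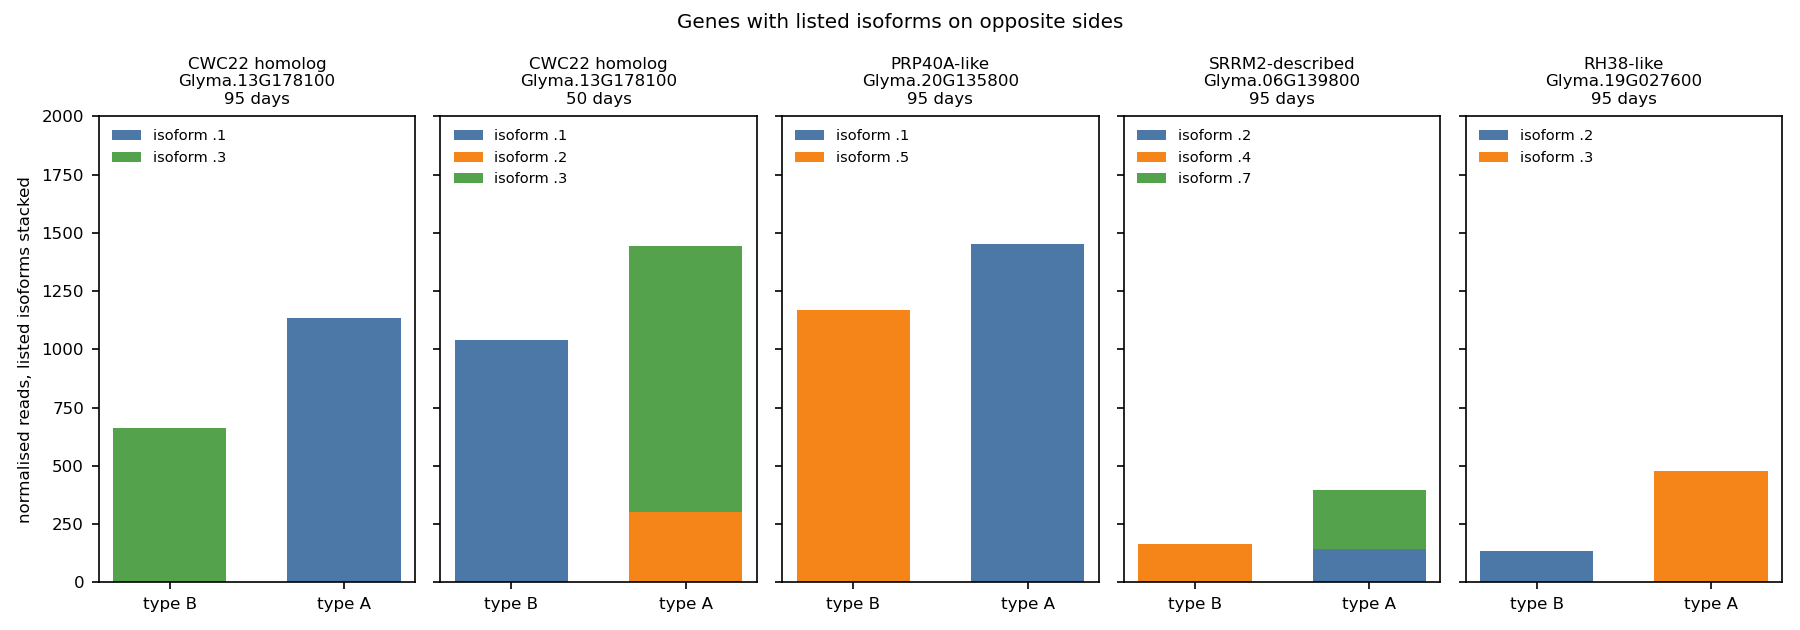
Normalised reads of the listed isoforms, stacked, in the type B and the type A library for the genes whose listed isoforms lay on opposite sides. No colour appears in both bars of a panel, and the height of the bars differs by 1.24-fold to 3.53-fold.

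SR proteins and relatives were evenly divided at 95 days, 3 with more in B and 3 in A, and all 3 listed at 50 days had more in B. RS2Z32, a plant-specific SR protein with zinc knuckles, was listed from neighbouring locus numbers, a different one at each age. These loci share an Arabidopsis match, and the sources used here do not say how reads were divided between them. Glyma.19G176200.1 had 0 in B and 588 in A at 95 days, with an adjusted p of 1 in the authors' deposited table. Glyma.19G176100.1 had 1836 in B and 6.42 in A at 50 days, 286-fold higher in B (145 to 663). It was the member with the most reads in B at either age. RS41, another plant-specific SR protein, had 313 in B and 0 in A at 95 days as Glyma.07G078300.2. SR45a, an SR-like protein that responds to stress in Arabidopsis, had 202 in B and 0 in A at 95 days as Glyma.10G267100.6.

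The remaining listed SR-class transcripts belong to Glyma.06G139800, whose names disagree, since its description is that of an SR-related matrix protein and its symbol CIP7 that of a COP1-interacting protein of light signalling. Glyma.06G139800.7 had 0 in B and 253 in A at 95 days, and 775 in B and 0 in A at 50 days. Glyma.06G139800.4 had 165 in B and 0 in A at 95 days, and 246 in B and 0 in A at 50 days. Glyma.06G139800.2, listed at 95 days, had 0 in B and 143 in A. At 50 days both listed isoforms thus had reads in B alone, and at 95 days Glyma.06G139800.4 had them in B and the others in A. Without this gene, the SR proteins come to 2 with more in B and 1 in A at 95 days and to 1 in B at 50 days.

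RNA helicases, mostly of the DEAD-box family that remodels RNA with ATP, gave 3 transcripts with more in B and 6 in A at 95 days. At 50 days they gave 3 and 3. The helicase PRP22, with more in A at 50 days, is counted with the splicing factors and not here. RH46-like Glyma.05G005500.1 had 21.9 in B and 966 in A at 95 days, 44.2-fold lower in B (28.4 to 72.7). RH42-like Glyma.11G012200.3, in Arabidopsis (RCF1) needed for correct splicing in the cold, had 0 in B and 746 in A at 95 days, at least 227-fold lower in B. At 50 days it had 545 in B and 0 in A, at least 226-fold higher in B. RH38-like Glyma.19G027600.3 kept its side, with 0 in B and 272 in A at 50 days.

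Other helicases with no read in B at 95 days were RH7-like Glyma.20G152200.2 at 455 in A, RH30-like Glyma.17G085300.1 at 386 in A and the mitochondrial helicase SUV3, Glyma.11G007500.2, at 306 in A. On the B side at that age RH28-like Glyma.18G101600.1 had 219 in B and 0 in A. SDE3, a helicase of RNA silencing in Arabidopsis, was higher in B at both ages. Glyma.01G235200.1 had 236 in B and 6.23 in A at 95 days, 37.9-fold higher in B (16.0 to 118), and 155 in B and 0 in A at 50 days. Also at 50 days RH37-like Glyma.02G169600.2 had 0 in B and 734 in A, RH1-like Glyma.08G231300.5 had 593 in B and 0 in A, and RH35-like Glyma.19G082800.1 had 0.939 in B (1 read) and 423 in A. Helicases of the same family thus stood on either side at both ages.

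Transcripts of polyadenylation and poly(A) binding, as matched by the word polyadenyl, all had more reads in A, 2 at each age. CID3, which binds the poly(A)-binding protein, had the most reads of any member, with 93.0 in B and 2983 in A at 95 days as Glyma.15G027500.2, 32.1-fold lower in B (25.8 to 40.3). RBP47B', a poly(A)-binding protein of the RBP47 type, had 0 in B and 67.3 in A at 95 days as Glyma.13G340200.5. At 50 days a transcript with the symbol of the cleavage factor PCFS4, Glyma.19G191800.3, had 0 in B and 337 in A. In Arabidopsis PCFS4 acts in flowering time through alternative polyadenylation. Glyma.04G040700.2, described as poly(A)-binding protein 8 but with the symbol PABP4, had 0 in B and 77.1 in A at 50 days. Only 4 transcripts make up this group, and 46.7% of all listed transcripts at 95 days and 60.8% at 50 days had more reads in A. The word match also left out a cleavage factor CFIM-25-like transcript on the other side. This was Glyma.09G066700.3, with 614 in B and 0 in A at 95 days, and it was not called.

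Heterogeneous nuclear ribonucleoproteins, which coat new transcripts, were few. Glyma.10G189500.3 had 0 in B and 426 in A at 95 days. At 50 days Glyma.18G081700.4 had 200.0 in B and 0 in A, Glyma.18G081700.3 had 122 in B and 0 in A, and the hnRNP Q-like Glyma.03G196700.5 had 0 in B and 118 in A. Of other RNA-binding proteins, a double-stranded RNA-binding protein 2-like transcript, of a family that assists the enzymes making small RNAs, had 108 in B and 0 in A at 95 days as Glyma.19G241100.1. Glyma.06G216600.1, an uncharacterised RNA-binding protein, had the lowest level of all, with 31.7 in B and 0 in A. At 50 days RNA-binding protein 12-like Glyma.08G068400.1 had 109 normalised reads in B against 2064 in A, 18.9-fold lower in B (15.7 to 23.0). RBM25-like Glyma.01G031400.4, related to a human splicing regulator, had 0 in B and 182 in A.

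Listed at both ages were 13 members, of which 8 had their reads on opposite sides at 95 and at 50 days. Over all 788 transcripts listed at both ages, 252 did so, or 32.0%. The 8 were 6 of the 8 transcripts classed as spliceosome and splicing factors, 1 of 2 SR-class transcripts and 1 of 3 helicases. The 6 include the RPRD1-family transcript, which entered that class by the word pre-mRNA. The 8 divided evenly, 4 being higher in B at 95 days and in A at 50 days, and 4 the reverse. All transcripts listed at both ages that changed side divided into 177 and 75. Of the 5 that kept their side, 2 were higher in B and 3 in A. Isoforms of 1 gene are not independent, and 2 of the 8 are isoforms of the CWC22 homolog. The 4 libraries are separate, and whether the letters mean the same type at both ages is not stated, so a side that differs between ages may be read only as a difference between the deposited columns.

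**Figure D3:**
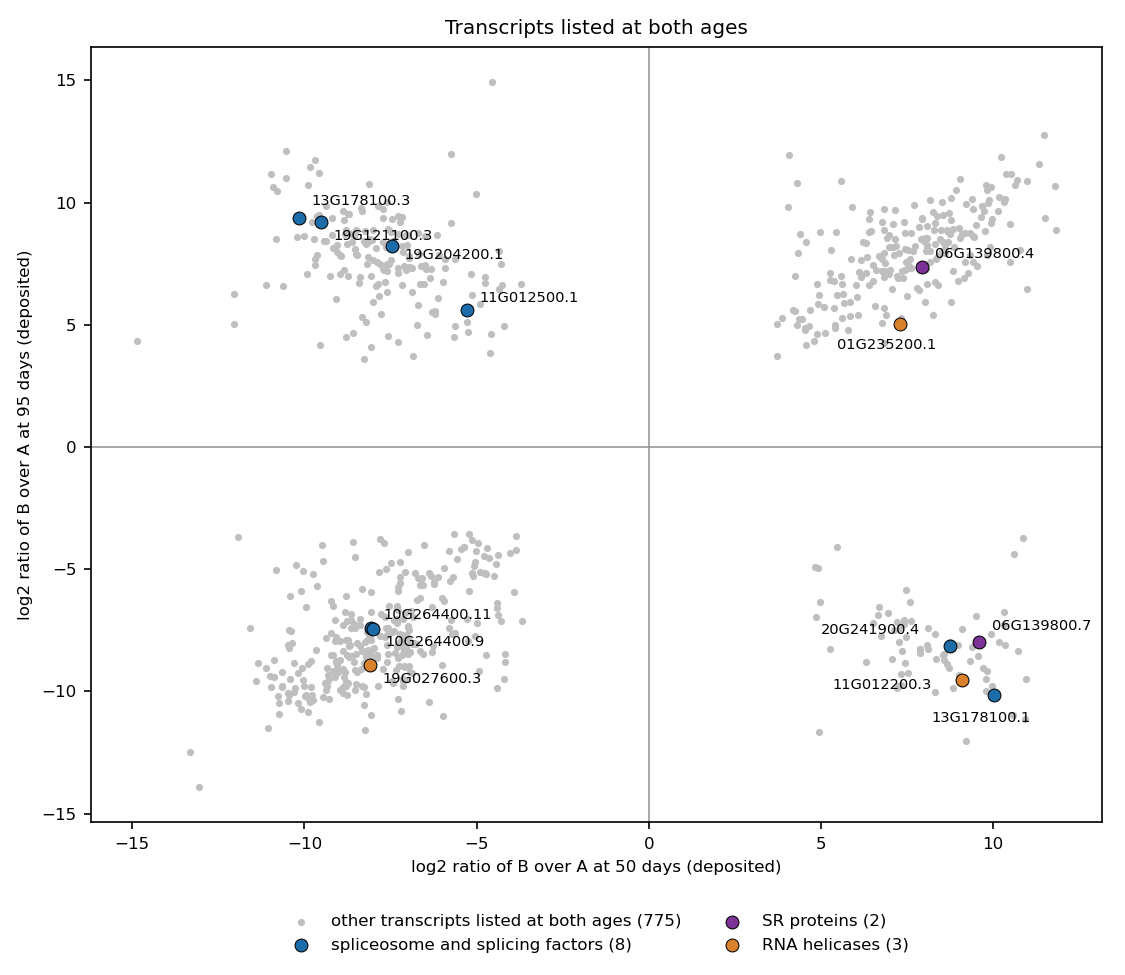
Deposited log2 ratio of B over A at 95 days (vertical) against 50 days (horizontal) for the 13 members listed at both ages (coloured by role and named) and the 775 other transcripts (grey). The 8 members in the upper left and lower right of the plot had more reads in one type at 95 days and in the other at 50 days.

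Other genes of RNA processing, silencing and decay, from a list of words outside the set (exosome, decapping, Pumilio, Dicer, Argonaute, CCCH zinc finger and others), were listed in similar number. At 95 days 35 were listed, 15 with more in B and 20 in A, and 1 was called, where 1.50% of all listed transcripts were. This was a Pumilio 2-like transcript, of a family of repressors of mRNA, Glyma.12G060600.3, with 0 in B and 2096 in A and an adjusted p of 0.0425 in the authors' deposited table. At 50 days 36 were listed, 11 with more in B and 25 in A, and 5 were called, where 4.64% of all were. Of these, 4 were lower in B, all CCCH zinc finger transcripts, among them the isoforms Glyma.09G225600.4 and Glyma.09G225600.1 of 1 gene. The one higher in B was a KH domain protein, Glyma.09G235900.4, with 1281 in B and 0 in A and an adjusted p of 0.0433 in the authors' deposited table.

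**Figure D4:**
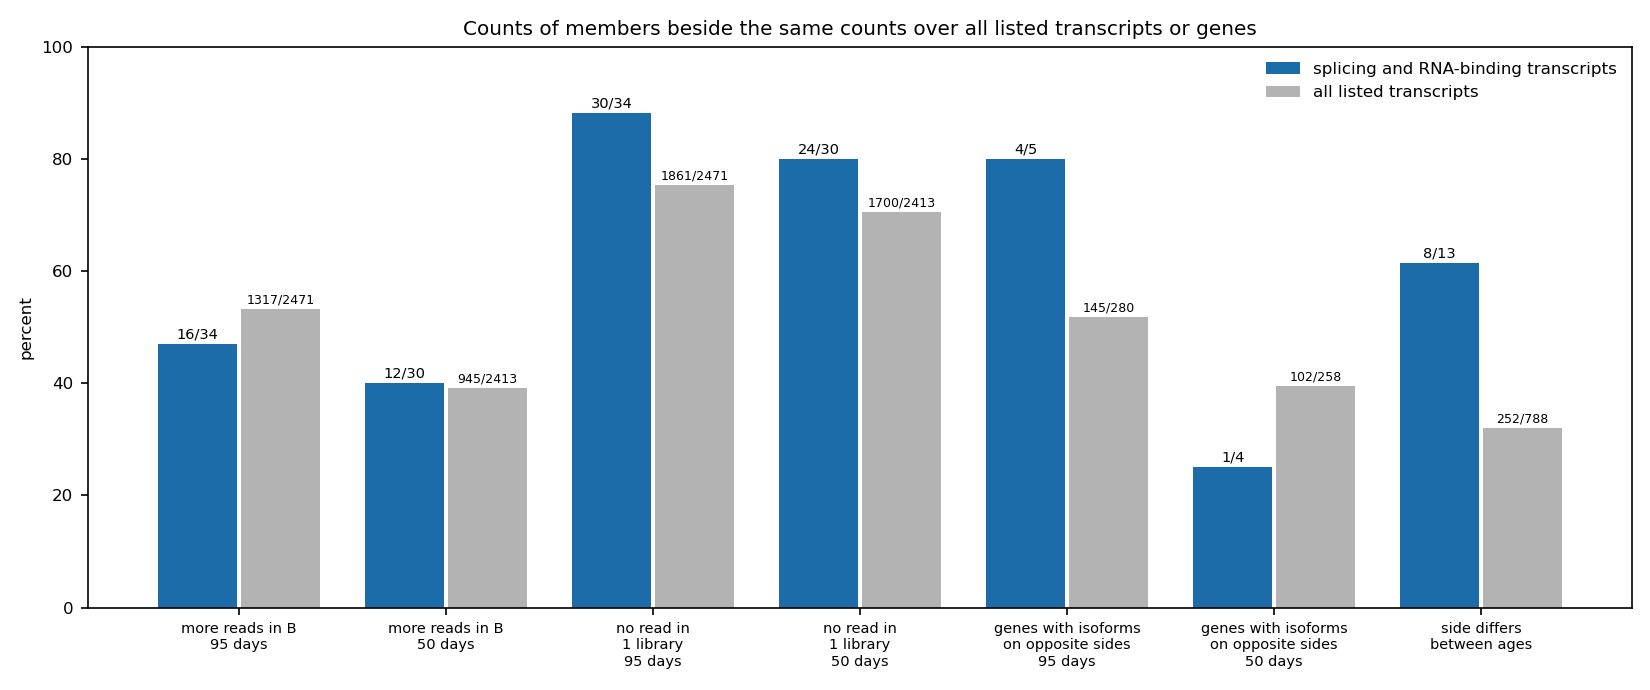
Percent of splicing and RNA-binding transcripts or genes (blue) and of all listed ones (grey) with more reads in B, with no read in 1 library, with isoforms on opposite sides, and with a side that differed between ages; the counts stand above the bars. The first pair of bars at each age differs little (16 of 34 against 1317 of 2471 at 95 days), and the last pair most (8 of 13 against 252 of 788). The 13 are few and include isoforms of the same genes.

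Of what the rule did not use, the deposited molecular function named nucleic acid or RNA binding for 17 of the 34 members at 95 days and 17 of the 30 at 50 days, and 13 had none at each age. Leaf markers could be checked only where listed. No transcript of the rubisco small chain, chlorophyll a-b binding or photosystem list was listed at 95 days, and 4 were at 50 days, with sums of 715 in B and 4034 in A. Root or nodule words matched 1 transcript at 95 days (0 in B, 386 in A) and 3 at 50 days (sums of 690 in B and 856 in A), and seed words matched none. No marker was called, and the part of these differences in the results was not tested.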

How the data were processed

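Leaf RNA was read on the NovaSeq platform of Illumina, per the labels' protocols. Trimmomatic 0.36 and DESeq 1.36.0 are named in the submitters' processing notes; the sources used here name no aligner, counter, build or gene models. Each deposited table holds a normalised signal per transcript for A and B, their log2 ratio and p-values (raw and adjusted), per the file headers. Every deposited signal minus 1 was a whole multiple of 1 step per column (within 0.01, 100% of values), so it was read as whole-number counts over a size factor, 0.914 for B and 0.803 for A at 95 days and 1.06 for B and 1.25 for A at 50 days. The deposited log2 ratio equals that of B over A with the added 1. At 50 days 1 repeated row was dropped. No count test was possible with 1 library per type, so the calls rest on the authors' adjusted p. The thresholds on it and on the log2 ratio were set here.

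Members and lists were chosen with earlier results of these data known. Roles follow the first matching word. Named transcripts were, per age, called ones, the 2 per role and side with the most reads, those of genes with isoforms on opposite sides and those listed at both ages, 27 at each age; the others were added because so few remained. Intervals were tested on simulated data with counting error only, the error they assume. Spread between plants or libraries was therefore not tested. Simulated transcripts with no read in the lower library were left out, so the lower bounds were not tested. Alternatives covered thresholds, level, 0 reads, isoforms per gene, wording, pseudocount and scaling. Software was matplotlib 3.10.9, scipy 1.17.1, numpy 2.4.6 and pandas 2.3.3 under Python 3.11.15.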

Additional observations from a re-analysis of the deposited data

Results flagged for a closer look

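Members that lay on opposite sides at the 2 ages were picked out for a closer look, since the log2 ratio of B over A had the opposite sign at 95 and at 50 days. The difference between the ages was not tested, there being 1 library per type and age. The log2 ratio at 95 days minus that at 50 days was -20.17 for Glyma.13G178100.1 and 19.54 for Glyma.13G178100.3, isoforms of the CWC22 homolog. It was 18.74 for the RPRD1-family transcript Glyma.19G121100.3 and 15.65 for the prp12-like Glyma.19G204200.1. For the PRP3-like genes it was -16.91 for Glyma.20G241900.4 and 10.89 for Glyma.11G012500.1. It was -18.64 for RH42-like Glyma.11G012200.3 and -17.59 for Glyma.06G139800.7. Where a library had no read these differences depend on the 1 that the authors added.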

How the results depend on the processing

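No paired analysis was possible because each age has 1 library per type and the result comes from no replicated test. With an adjusted p under 0.1 in place of 0.05, 1 member was called at each age instead of 0, and adding transcripts annotated to RNA binding (chosen after seeing the data) also gave 1 at each age. That addition gave 27 with more in B and 27 in A at 95 days, and 21 in B and 26 in A at 50 days. Without transcripts that had no read in 1 library, 2 had more in B and 2 in A at 95 days, and 1 in B and 5 in A at 50 days. With core splicing words only, 11 had more in B and 9 in A at 95 days, so that the majority lay in B and not in A, and 7 had more in B and 10 in A at 50 days. The median log2 ratio at 95 days was -4.68 with 0 reads set to 3, -3.44 with a pseudocount of 10 and -9.17 after centring, and at 50 days -5.04, -3.90 and -1.46, and -5.28 above 100 normalised reads. Centring subtracts the median of listed transcripts with reads in both libraries, 3.98 at 95 days and -4.33 at 50 days. It reversed 1 named transcript, Glyma.08G068400.1, to 0.10. Fewer transcripts account for the smaller counts; the cause of the other shifts was not tested. Counts of genes with isoforms on opposite sides stayed within 1.5 times under the alternatives run.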

Other observations

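Outside the word list, 20 transcripts at 95 days and 17 at 50 days had RNA binding as a deposited molecular function, 11 and 9 of them with more reads in B. Among these, the listed transcripts with the symbol of a YTH protein had no read in B at either age. In animals and plants such proteins read methylated adenosine in mRNA. Other YTH transcripts may be missing because only those with an unadjusted p under 0.05 were listed. The first named below is described only as an uncharacterised protein. Glyma.15G136400.3 had 0 in B and 548 in A at 95 days, and 0 in B and 209 in A at 50 days. Glyma.05G166600.3 had 0 in B and 369 in A at 95 days, and 0 in B and 142 in A at 50 days. A CRM domain protein of the chloroplast, Glyma.05G236500.1, of a family of intron-binding proteins, had 905 in B and 0 in A at 95 days, and 448 in B and 6.42 in A at 50 days. None of these was called, and all were chosen after their values were seen.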
